A study of Rattus norvegicus with 8 samples.

Results

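The genes described here copy the genome once per cell cycle. They are 43 rat DNA replication genes, chosen by symbol, and 39 of them were measured among the 14506 genes that a feature of the array names by exactly 1 symbol. Mcm3, Mcm4, Pole2 and Chaf1a were not analysed here. For each gene the feature with the highest mean over all arrays was taken. RNA came from myelinating cultures, mixed cultures grown from dissociated spinal cords of Sprague-Dawley rat embryos of embryonic day 15.5, in which several neural cell types are present together. Cultures were left untreated (control) or received human FGF9, a fibroblast growth factor, at 100 ng/ml, and were collected after 24 h or after 10 days. There were 2 arrays in each of the 4 groups, 8 Affymetrix Rat Gene 1.0 ST arrays in all, and no group carried any other treatment or genotype. A control and an FGF9 array with the same replicate number and the same prefix in their array names are called a pair here, and values are given in the order pair 1, pair 2. Pair 1 at 24 h had the prefix CL1 and pair 2 the prefix CL2. Of the 10-day pairs, the first had CL2 and the second AA1. What a prefix marks is not given by the labels.

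At an origin, the origin recognition complex, Cdc6 and Cdt1 load the Mcm2-7 ring onto DNA, and Cdc7 kinase, Cdc45 and the GINS proteins turn that ring into a moving helicase. Primase and the polymerases alpha, delta and epsilon then make DNA on a track set by the Pcna clamp, while ribonucleotide reductase and its partners supply the nucleotides. Transcription of many of these genes climbs as cells enter S phase, under E2F transcription factors, and is low in cells that have left the cycle, such as neurons.

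Levels are the deposited values, read as log2 units, so that a difference of 1 is a doubling. The arrays had medians of 6.62 to 6.73 over all 29214 features, with or without a symbol. Levels of one gene are not set against those of another, because probes differ in brightness. The source field of the labels names neurosphere-derived astrocytes, while the titles and the cell type field name myelinating cultures. Nefl, a neurofilament of neurons, lay between 10.35 and 12.20 on the arrays, and Mog, a myelin protein of oligodendrocytes, between 8.25 and 11.52. Both were thus well above the array medians on all 8 arrays. Over genes, the correlation between the AA1 pair of arrays was 0.966, that of AA1 with any other array 0.889 to 0.933, and that among the rest 0.956 to 0.988. Whether replicates came from separate cultures is not stated, so how much of the spread among arrays behind every p-value is technical is not known. Between the 10-day controls, 6 fibroblast and pericyte genes were higher in pair 1 than in pair 2 by a median of 3.53.

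After 24 h of FGF9, the replication genes were higher than in control as a group. The median difference of the 39 genes was 0.77 log2 units, a 1.70-fold higher level, against -0.00 for all 14506 genes. It was 0.82 in pair 1 and 0.78 in pair 2, and single genes ranged from 0.17 for Gins3 to 1.77 for Uhrf1 and Cdc6. In both pairs 38 of 39 were higher with FGF9, against a background of 31.8% of all genes, and 0 were lower in both, against 32.9%. Gins3, a GINS subunit, was the exception, with differences of -0.23 and 0.56. A difference over 0.5 in both pairs was met by 28 of 39 genes (background 2.36%), and one over 1 by 7 (background 0.524%), namely Cdc6, Cdt1, Mcm5, Mcm6, Cdc45, Rrm2 and Uhrf1. Fewer cells of a type and less RNA per cell cannot be told apart in such bulk RNA, and the same holds for more.

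No replication gene passed the test at 24 h. In limma with 1 mean per group, 0 of 39 genes had an adjusted p under 0.05 (background 0.0%, 0 of 14506 genes), and the smallest adjusted p among them was 1.0. At an unadjusted p under 0.05, 12 of 39 were higher (30.8%, background 1.23%) and 0 were lower (background 0.696%). With the pair as a block, which takes out the level that a control shares with its FGF9 array, the members' median standard error was 0.175 in place of 0.373, and 0 were called again (background 0.0%). Adjusted p-values in that fit ran from 0.122 for Uhrf1 to 0.836 for Gins3. Its unadjusted p was under 0.05 for 37 of 39 genes, all higher (background 5.88%), the others being Gins3 and Rfc4. In the block fit with either 10-day pair left out, added after the data had been seen, 16 of 39 genes were called higher, with adjusted p from 0.0231 to 0.048 (background 1.17%, and 1.63% in either direction). That fit takes its spread from the 24 h arrays alone and has 1 residual degree of freedom. With either 24 h pair left out, 0 were called, but each 24 h group is then a single array, the spread comes from the 10-day arrays alone, and that 0 is no check of the 24 h values.

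**Figure D1:**
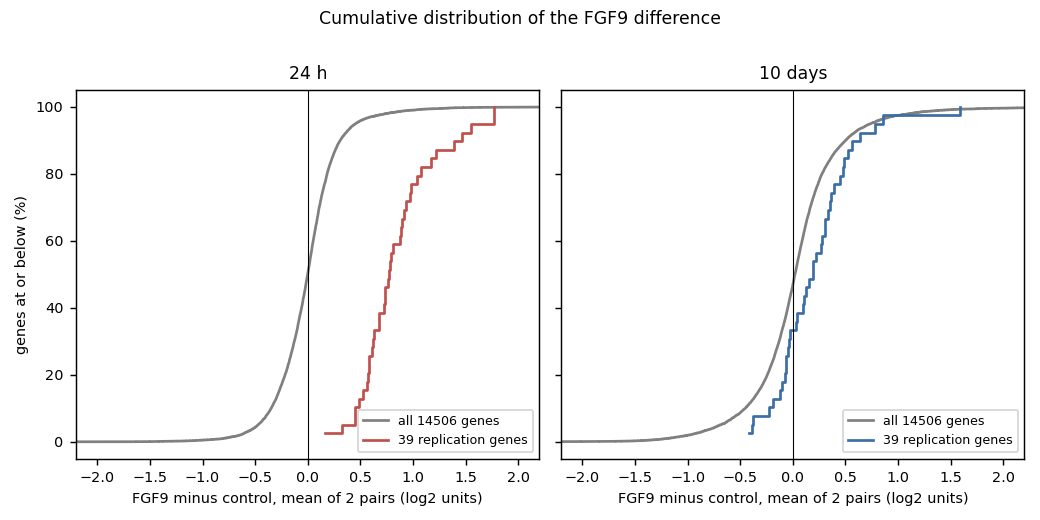
Cumulative share of genes (y axis, percent) at or below a given FGF9 minus control difference (x axis, log2 units, mean of 2 pairs) at 24 h and at 10 days; the grey line is all 14506 genes and the coloured line the 39 replication genes. At 24 h the coloured line lies to the right of the grey one over nearly its whole length, with a median of 0.77, and at 10 days it lies much closer, with a median of 0.19.

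Promoters are shown for 4 of the genes, since 38 of the 39 were higher in both 24 h pairs, although none passed the test, and E2F factors are known regulators of such genes. They are the genes with the largest mean difference over both times among those whose window holds an E2F-type motif. The sequences are from RefSeq, build GRCr8, 250 bases before to 50 after the annotated start, written 5′ to 3′ on the gene's strand, with each E2F-type match in capitals. Uhrf1 is at chr9:1222936-1223235, Mcm5 at chr19:13488563-13488862, Cdt1 at chr19:67528999-67529298 and Rpa2 at chr5:150260522-150260821, all on the plus strand.
Uhrf1: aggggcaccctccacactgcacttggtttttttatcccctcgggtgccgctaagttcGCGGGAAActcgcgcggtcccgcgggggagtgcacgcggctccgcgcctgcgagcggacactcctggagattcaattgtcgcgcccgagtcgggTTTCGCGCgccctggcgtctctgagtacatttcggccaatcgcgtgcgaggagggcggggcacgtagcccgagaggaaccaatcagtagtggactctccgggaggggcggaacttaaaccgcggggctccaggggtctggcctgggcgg
Mcm5: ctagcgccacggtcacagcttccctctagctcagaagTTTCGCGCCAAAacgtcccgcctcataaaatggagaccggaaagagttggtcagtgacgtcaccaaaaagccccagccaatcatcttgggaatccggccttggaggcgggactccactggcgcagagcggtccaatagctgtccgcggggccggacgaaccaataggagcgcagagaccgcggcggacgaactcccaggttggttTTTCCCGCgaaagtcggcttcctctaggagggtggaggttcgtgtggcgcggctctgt
Cdt1: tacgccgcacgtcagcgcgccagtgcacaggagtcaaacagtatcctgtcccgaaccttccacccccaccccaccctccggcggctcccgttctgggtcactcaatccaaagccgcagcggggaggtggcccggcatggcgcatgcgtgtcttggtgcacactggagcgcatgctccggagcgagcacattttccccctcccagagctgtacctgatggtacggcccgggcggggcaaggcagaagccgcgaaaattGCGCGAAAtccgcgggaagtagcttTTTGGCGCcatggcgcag
Rpa2: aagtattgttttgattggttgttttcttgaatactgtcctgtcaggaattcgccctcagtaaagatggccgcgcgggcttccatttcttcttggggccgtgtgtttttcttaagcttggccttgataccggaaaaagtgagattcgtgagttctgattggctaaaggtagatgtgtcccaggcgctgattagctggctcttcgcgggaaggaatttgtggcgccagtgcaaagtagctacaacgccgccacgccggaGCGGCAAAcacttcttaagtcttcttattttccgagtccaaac

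The letters searched were TTTCCCGC, TTTCGCGC, TTTGCCGC and TTTGGCGC, on both strands. In Uhrf1 the matches start 193 and 99 bases before the annotated start. In Mcm5 they start 213, 209 and 8 bases before it, and the first 2 overlap, so they appear as 1 run of capitals. The matches of Cdt1 and the single match of Rpa2 lie after the start. A window was found for 34 of the 39 genes. At least 1 match was held by 15 of these 34 genes (44.1%) and by 15 of their 37 windows (40.5%), against 2.14% of all 33469 windows and 3.08% of the 12536 windows of measured genes. CCAAT, the box bound by NF-Y, was in 59.5% of the members' windows and in 38.2% of those of measured genes. The 15 genes with an E2F-type match had a median 24 h difference of 0.77 and the 19 without had 0.74. At 10 days these medians were -0.03 and 0.27. A match is a string of letters and not a measured site.

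Genes that load and license the helicase had the highest role median at 24 h, 1.12 over 8 measured genes, and all 8 were higher in both pairs. Cdc6, the loading ATPase, measured 7.19 and 6.03 in the 24 h controls and 8.66 and 8.09 with FGF9. Its 10-day levels were 5.83 and 5.52 in control and 5.55 and 6.23 with FGF9. Both treated arrays at 24 h were above both controls, by 1.77 (SE 0.45, n = 2 a group, 3.40-fold), while at 10 days the groups overlapped. Cdt1, the licensing factor that brings the Mcm ring to the origin, read 7.76 and 6.52 in the 24 h controls and 8.81 and 8.25 with FGF9. At 10 days it read 6.45 and 5.67 in control, then 6.53 and 6.29 with FGF9. Here too the 24 h groups did not overlap, with a difference of 1.39 (SE 0.48), and the 10-day groups did.

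The measured subunits of the Mcm ring were all higher in both 24 h pairs. Mcm5, whose promoter is printed above, stood at 8.86 and 7.40 in the 24 h controls against 10.07 and 9.30 with FGF9. Its 10-day controls stood at 6.89 and 5.56 and its 10-day FGF9 arrays at 6.76 and 6.96. The 24 h difference was 1.55 (SE 0.63), and at 10 days pair 1 gave -0.13 and pair 2 gave 1.40. Mcm2 gave 8.84 and 7.96, then 9.78 and 9.17 with FGF9 at 24 h, and 8.18 and 7.74, then 8.21 and 8.67 with FGF9 at 10 days. It was the 1 Mcm ring gene whose FGF9 arrays were above both controls at both times, by 1.07 (SE 0.39) and 0.48 (SE 0.39). Mcm6 gave 9.33 and 8.40, then 10.36 and 9.71 with FGF9 at 24 h, and 8.27 and 7.02, then 7.78 and 7.30 with FGF9 at 10 days. Mcm7 gave 9.72 and 8.70, then 10.55 and 9.73 with FGF9 at 24 h, and 8.46 and 7.95, then 7.93 and 8.42 with FGF9 at 10 days. For both the 24 h FGF9 arrays were above both controls, with differences of 1.17 and 0.93, and the 10-day pairs had opposite signs, -0.49 and 0.28 for Mcm6 and -0.53 and 0.47 for Mcm7. Orc1, the largest origin recognition subunit, had the smallest mean difference over both times in this role. It measured 5.15 and 4.86 in the 24 h controls, 5.84 and 5.65 with FGF9, 4.66 and 4.89 in the 10-day controls and 4.92 and 4.88 with FGF9. Its 10-day levels and its 24 h control of pair 2 are near the arrays' 5th percentiles of 4.79 to 4.89, where an array can understate a difference. Orc6 was higher in all 4 pairs, by 0.82 and 0.63 at 24 h and by 0.76 and 0.13 at 10 days.

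**Figure D2:**
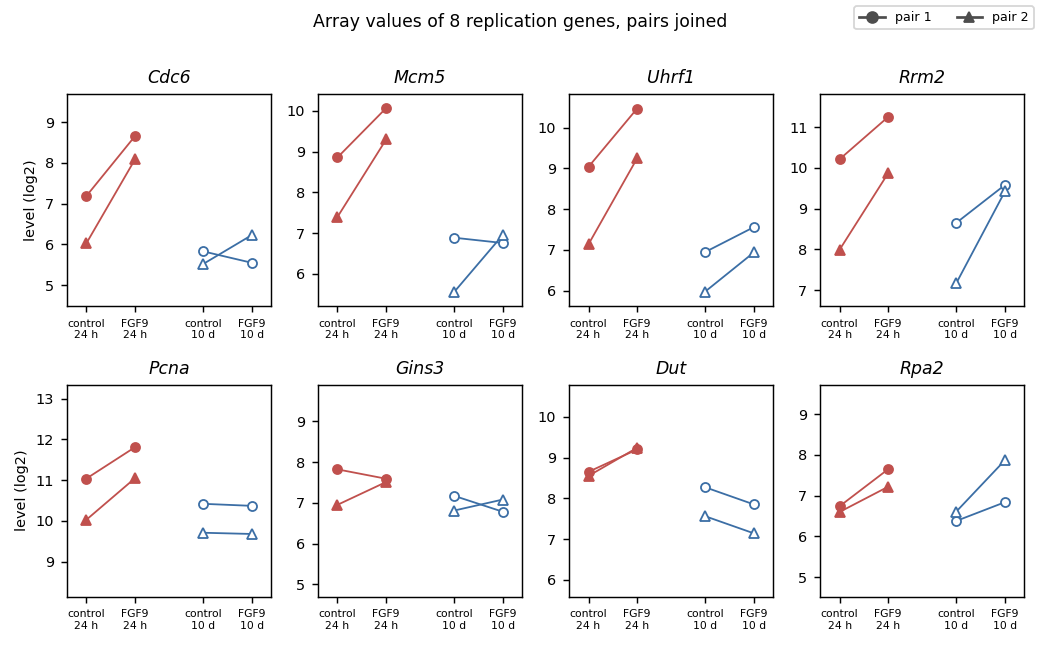
Level in log2 units (y axis, each panel spanning the same number of units) of 8 replication genes on each array, with lines joining the control and FGF9 array of a pair; filled red is 24 h, open blue is 10 days, circles are pair 1 and triangles pair 2. Every red line climbs except pair 1 of Gins3, and at 10 days the lines of Cdc6, Mcm5 and Gins3 run in opposite directions while both lines of Rrm2, Uhrf1 and Rpa2 climb and both lines of Dut descend.

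Among the genes that fire origins and activate the helicase, the median was 0.79 at 24 h and -0.05 at 10 days, and 6 of 7 were higher in both 24 h pairs. Cdc45, a core part of the active helicase, measured 7.09 and 5.86 in the 24 h controls and 8.10 and 7.27 with FGF9. At 10 days it measured 6.17 and 5.61 in control and 5.82 and 5.72 with FGF9. The 24 h groups were apart by 1.21 (SE 0.48), and the 10-day groups overlapped. Mcm10, which helps to activate the helicase, measured 7.08 and 5.81, then 8.00 and 6.98 with FGF9 at 24 h. At 10 days it measured 5.85 and 5.69, then 5.98 and 6.17 with FGF9. Its pair 2 FGF9 array at 24 h was below the pair 1 control, so those groups overlapped, although it was higher within each pair, by 0.91 and 1.17.

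The GINS subunits, which hold Cdc45 to the ring, differed among themselves. Gins2 measured 6.38 and 5.87, then 7.36 and 6.66 with FGF9 at 24 h, and 6.21 and 6.02, then 6.60 and 6.30 with FGF9 at 10 days. The FGF9 arrays were above both controls at both times, by 0.88 (SE 0.31) and 0.33 (SE 0.31). Gins4 measured 7.42 and 6.92, then 8.28 and 7.65 with FGF9 at 24 h, and 6.64 and 6.83, then 6.39 and 6.99 with FGF9 at 10 days. Its 24 h groups did not overlap (difference 0.79), and its 10-day pairs had opposite signs. Gins3 measured 7.82 and 6.95, then 7.59 and 7.51 with FGF9 at 24 h, and 7.17 and 6.81, then 6.78 and 7.08 with FGF9 at 10 days. It was lower in pair 1 and higher in pair 2 at both times. Gins1 was higher by 0.24 and 1.29 at 24 h, and differed by -0.82 and 0.05 at 10 days. Cdc7, the kinase that triggers firing, was higher by 0.88 and 0.46 at 24 h and differed by -0.14 and 0.22 at 10 days.

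The clamp, its loader and the single-strand binding proteins had a lower 24 h median, 0.58, with all 7 higher in both pairs, and a 10-day median of 0.31. Pcna, the sliding clamp, measured 11.04 and 10.03 in the 24 h controls and 11.81 and 11.05 with FGF9. At 10 days it measured 10.42 and 9.71, then 10.37 and 9.68 with FGF9. Its pair 2 FGF9 array at 24 h was only just above the pair 1 control, with differences of 0.76 and 1.02 within the pairs, against -0.05 and -0.03 at 10 days. Rpa2, a subunit of the single-strand binding complex, measured 6.74 and 6.60, then 7.65 and 7.22 with FGF9 at 24 h. Its 10-day levels were 6.38 and 6.61, then 6.84 and 7.87 with FGF9. It was 1 of the few replication genes with a 10-day difference, 0.86 (SE 0.36), above that at 24 h, 0.77 (SE 0.36), and its groups did not overlap at either time.

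Of the clamp loader subunits, Rfc5 measured 7.23 and 6.65, then 7.82 and 7.68 with FGF9 at 24 h, and 6.79 and 6.75, then 6.82 and 7.09 with FGF9 at 10 days. Rfc4 measured 7.60 and 7.72, then 8.04 and 7.93 with FGF9 at 24 h, and 7.72 and 7.16, then 7.54 and 8.30 with FGF9 at 10 days. Rfc3 measured 7.50 and 7.10, then 8.06 and 7.59 with FGF9 at 24 h, and 7.19 and 6.42, then 6.96 and 6.27 with FGF9 at 10 days. At 24 h the FGF9 arrays of these 3 were above both controls. At 10 days Rfc5 was higher in both pairs, Rfc3 lower in both, and Rfc4 was lower by 0.18 in pair 1 and higher by 1.14 in pair 2. Rfc2 was higher in all 4 pairs, by 0.53 and 0.62 at 24 h and 0.27 and 0.45 at 10 days. So was Rpa3, by 0.33 and 0.64, then 0.23 and 0.38. The other feature of Rpa3 gave mean differences of 0.81 and 0.29 at 24 h and 10 days.

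The polymerase and primase genes had medians of 0.74 at 24 h, with all 7 higher in both pairs, and 0.27 at 10 days. Pola2, the regulatory subunit of polymerase alpha, measured 6.55 and 5.76, then 7.63 and 6.64 with FGF9 at 24 h, and 5.97 and 6.22, then 6.09 and 6.89 with FGF9 at 10 days. Pole, the catalytic subunit of polymerase epsilon, measured 7.69 and 6.08, then 8.62 and 7.10 with FGF9 at 24 h, and 5.86 and 6.01, then 5.43 and 6.82 with FGF9 at 10 days. Both had a 24 h difference of 0.98, with an SE of 0.46 for Pola2 and 0.76 for Pole, whose 24 h groups overlapped. At 10 days Pole was lower by 0.43 in pair 1 and higher by 0.80 in pair 2. Pold2, a small subunit of polymerase delta, measured 8.75 and 8.71, then 9.44 and 9.17 with FGF9 at 24 h, and 8.96 and 8.51, then 9.14 and 9.39 with FGF9 at 10 days. Its FGF9 arrays were above both controls at both times, by 0.57 (SE 0.23) and 0.53 (SE 0.23).

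Prim1, the catalytic primase subunit, measured 9.00 and 9.22, then 9.97 and 10.00 with FGF9 at 24 h, and 8.98 and 10.54, then 8.87 and 9.89 with FGF9 at 10 days. It was higher by 0.96 and 0.78 at 24 h and lower by 0.11 and 0.65 at 10 days, and its 10-day control of pair 2 was its highest array. Prim2 was higher by 0.91 and 0.35 at 24 h and differed by -0.04 and 0.58 at 10 days. Pola1, the catalytic subunit of polymerase alpha, was higher by 0.61 and 0.51 and then differed by -0.32 and 0.37. Pold1, that of polymerase delta, was higher in all 4 pairs, by 0.82 and 0.65, then 0.12 and 0.44.

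Okazaki fragments are trimmed by Fen1, a flap nuclease, and joined by Lig1, a DNA ligase. Fen1 measured 7.60 and 7.06, then 7.99 and 7.58 with FGF9 at 24 h, and 7.42 and 5.68, then 7.29 and 6.01 with FGF9 at 10 days. Lig1 measured 9.20 and 8.64, then 9.89 and 9.30 with FGF9 at 24 h, and 8.90 and 8.62, then 8.47 and 8.58 with FGF9 at 10 days. The groups of Fen1 overlapped at both times, with differences of 0.38 and 0.52, then -0.13 and 0.33. Lig1 was the 1 gene of the 39 whose 10-day FGF9 arrays were both below both controls (background 11.3%), with differences of -0.43 and -0.03 after 0.69 and 0.66 at 24 h.

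In nucleotide supply all 5 genes were higher in both 24 h pairs, with a median of 0.62, and the 10-day median was 0.11. Rrm2, the subunit of ribonucleotide reductase that limits dNTP supply in S phase, measured 10.21 and 7.99 in the 24 h controls and 11.25 and 9.87 with FGF9. At 10 days it measured 8.65 and 7.17 in control and 9.58 and 9.42 with FGF9. It was higher in every pair, by 1.04, 1.88, 0.93 and 2.25, and its 10-day mean difference, 1.59 (SE 0.87), was the largest of the 39 genes. The other Rrm2 feature gave 1.84 at 24 h and 2.03 at 10 days. Tk1, the salvage thymidine kinase, measured 6.75 and 5.81, then 7.38 and 6.74 with FGF9 at 24 h, and 6.25 and 6.22, then 6.75 and 6.84 with FGF9 at 10 days. Its 24 h groups overlapped narrowly and its 10-day groups did not overlap, although the 10-day difference, 0.56, was smaller than that at 24 h, 0.78.

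Dut, the enzyme that keeps dUTP out of DNA, went the other way at 10 days. It measured 8.65 and 8.55, then 9.20 and 9.24 with FGF9 at 24 h, and 8.27 and 7.56, then 7.85 and 7.14 with FGF9 at 10 days. The difference was 0.55 and 0.69 at 24 h and -0.42 and -0.42 at 10 days. Tyms, which makes thymidylate, was higher by 0.56 and 0.60 at 24 h and differed by -0.14 and by less than 0.005 at 10 days. Rrm1, the large reductase subunit, was higher by 0.50 and 0.39 and then differed by -0.19 and 0.41. Its other feature differed by 0.04 at 24 h and 0.09 at 10 days, so its features disagree in size.

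Genes that rebuild chromatin and copy DNA methylation behind the fork had a 24 h median of 0.92, with all 3 higher in both pairs. Uhrf1, which brings Dnmt1 to newly copied DNA, measured 9.04 and 7.14 in the 24 h controls and 10.47 and 9.25 with FGF9. At 10 days it measured 6.95 and 5.98, then 7.56 and 6.94 with FGF9. It was higher in all 4 pairs, by 1.43, 2.12, 0.60 and 0.97, with a 24 h mean of 1.77 (SE 0.74, 3.42-fold). Chaf1b, a subunit of the chromatin assembly factor, measured 7.15 and 6.02, then 7.82 and 7.19 with FGF9 at 24 h, and 5.92 and 6.99, then 6.17 and 7.05 with FGF9 at 10 days. Dnmt1, the maintenance methyltransferase, measured 9.34 and 9.06, then 10.07 and 9.55 with FGF9 at 24 h, and 8.47 and 8.99, then 8.47 and 8.86 with FGF9 at 10 days. Its 24 h groups did not overlap, and at 10 days it differed by less than 0.005 in pair 1 and by -0.13 in pair 2.

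**Figure D3:**
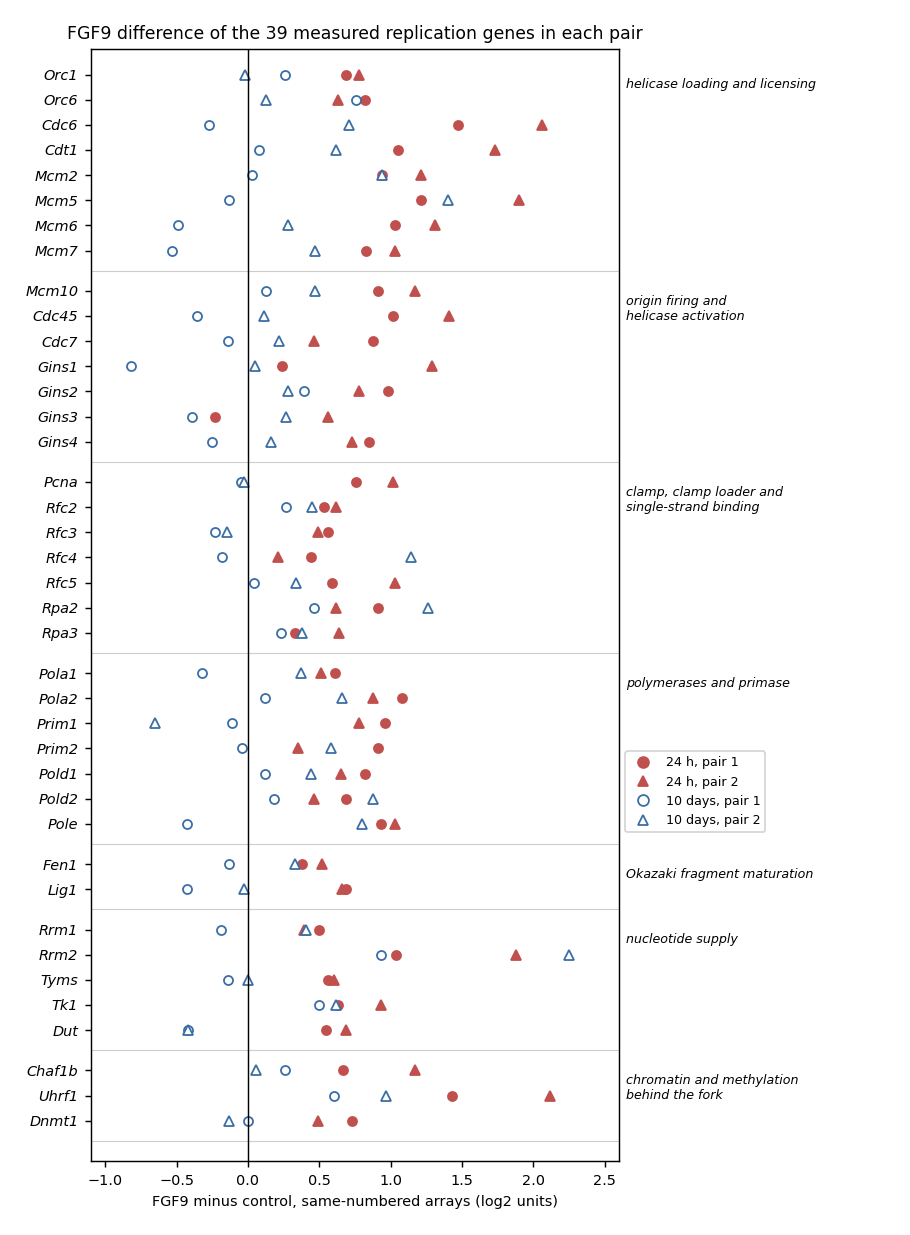
FGF9 minus control within each same-numbered pair (x axis, log2 units) for the 39 measured replication genes (rows, grouped by role); filled red is 24 h, open blue 10 days, circles pair 1 and triangles pair 2. All red points lie to the right of 0 except that of Gins3 in pair 1, whereas the blue circles are centred at a median of -0.05 and the blue triangles at 0.37.

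Pair 1 was the higher of the 24 h pairs for almost every replication gene, whether treated or not. Its control was above that of pair 2 for 36 of 39 genes (background 49.5%), by a median of 0.56, and the FGF9 arrays differed by 0.57. This spread is close in size to the FGF9 difference. Both FGF9 arrays were above both controls for 30 of 39 genes (background 17.5%). The 8 others that were higher in both pairs, Mcm10, Gins1, Pold1, Pole, Fen1, Rrm1, Rrm2 and Tk1, had overlapping groups. In the 10-day controls pair 1 was above pair 2 for 28 of 39 genes (background 50.4%), by a median of 0.36.

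After 10 days of FGF9 the group was no longer uniformly higher. The median difference was 0.19 (all genes 0.02), -0.05 in pair 1 and 0.37 in pair 2. In both pairs 16 of 39 were higher (41.0%, background 33.2%) and 7 were lower (17.9%, background 30.0%). The 16 were Orc6, Cdt1, Mcm2, Mcm10, Gins2, Rfc2, Rfc5, Rpa2, Rpa3, Pola2, Pold1, Pold2, Rrm2, Tk1, Chaf1b and Uhrf1. The 7 were Pcna, Rfc3, Prim1, Lig1, Tyms, Dut and Dnmt1, of which Tyms and Dnmt1 were within 0.005 of 0 in 1 pair. Another 15 were lower in pair 1 and higher in pair 2 (background 18.3%), and the difference was larger in pair 2 for 32 of 39 genes (background 52.5%). Rrm2 and Uhrf1 were the 2 genes higher by over 0.5 in both pairs (5.13%, background 5.17%). For 10 genes both FGF9 arrays were above both controls (25.6%, background 14.9%).

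At 10 days, too, no replication gene was called. In limma 0 of 39 passed an adjusted p of 0.05 (background 0.0%), and 0 had an unadjusted p under 0.05, against 816 of all genes (background 3.93% higher and 1.7% lower). With the pair as a block, limma called 0 of the 39 while it called 933 of 14506 genes (background 6.43%, made up of 3.12% higher and 3.31% lower). The smallest adjusted p-values in that fit were 0.0536 for Rrm2, 0.0733 for Rpa2, 0.0789 for Tk1 and 0.0805 for Uhrf1. At an unadjusted p under 0.05, 6 were higher (15.4%, background 12.7%) and 1, Dut, was lower (background 11.2%). Leaving out a 10-day pair leaves 1 array in each 10-day group and takes the spread from the 24 h arrays alone, with 1 residual degree of freedom, on the assumption that the lone arrays vary like those. Without pair 1 such a block fit, added after the data had been seen, called Mcm2, Mcm5, Rfc4, Rpa2, Pold2, Pole and Rrm2 higher (7 of 39, background 6.51%), with a median of 0.37. Without pair 2 it called 0 of 39 (background 3.92%), with a median of -0.05.

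The FGF9 difference was smaller at 10 days than at 24 h for most replication genes. The median of the 10-day minus the 24 h difference was -0.63 (all genes 0.00), and it was below 0 for 36 of 39 genes, the others being Rfc4, Rpa2 and Rrm2. For 29 of 39 both 10-day pair differences were below both at 24 h (background 21.5%), and for 0 were both above (background 23.3%). The largest drops were in Cdc6 (-1.55), Cdc45 (-1.34), Mcm6 (-1.27) and Prim1 (-1.25). The 10-day control of pair 2 was at 5.52 for Cdc6 and 5.61 for Cdc45, close to the arrays' 25th percentiles of 5.42 to 5.55. An array can understate a difference at low levels, and whether it did so here was not tested. Mcm6 and Prim1 were at 7.02 or above on every 10-day array. The test of this difference in limma called 0 of 39 genes (background 0.0%), and 1, Cdc6, had an unadjusted p under 0.05. With the pair as a block limma again called 0 of 39 (background 0.0483%), with 21 of 39 below an unadjusted p of 0.05, all lower at 10 days (background 5.29%), and a smallest adjusted p of 0.226, for Dut. Of the 3 prefixes, CL2 is the one that both times hold.

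Untreated cultures were compared between the times because a difference in the controls bears on both FGF9 comparisons, which share those arrays. The 10-day controls were lower by a median of 0.43, and for 13 of 39 genes both were below both 24 h controls (background 13.6%), with Cdc7 alone above (background 13.8%). limma called 0 of 39, with or without the block (background 0.0% and 0.00689%), and at an unadjusted p under 0.05 it gave 2 genes, Orc6 and Mcm5, both lower (background 1.51% lower and 1.35% higher). With the block it gave Dnmt1 lower (background 8.74%) and Gins2 higher (background 4.98%). Between the 2 controls that share the CL2 prefix the median was 0.04, with 18 of 39 lower at 10 days (background 49.5%). The lower controls at 10 days were therefore not seen within that prefix. In the FGF9 arrays, both 10-day arrays were below both 24 h arrays for 33 of 39 genes (background 19.6%). Between the CL2 FGF9 arrays 38 of 39 were lower at 10 days (background 48.9%), by a median of 0.73, Tk1 being the exception.

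Replication genes beyond the 39, and the genes that drive and follow S phase, were taken from lists. Of 27 other replication genes 19 were higher in both 24 h pairs (background 31.8%), with a median of 0.23. In the block fit limma called 0 of 27 at either time, and at an unadjusted p under 0.05 it gave 9 higher and 0 lower at 24 h (background 5.88% and 6.53%), then 5 higher and 1 lower at 10 days (background 12.7% and 11.2%). The calls given for the lists are those of the block fit on all 8 arrays at 10 days, in which 3.12% of all genes were called higher and 3.31% lower. Asf1b, a histone chaperone, was higher by 1.43 and 1.32, Hells, a chromatin remodeller, by 1.19 and 1.56, and Gmnn, the inhibitor of Cdt1, by 1.05 and 1.12. Other origin recognition subunits had mean 24 h differences of 0.28 for Orc2, -0.07 for Orc3, -0.01 for Orc4 and -0.08 for Orc5. Unlike Orc1, Orc6 and Orc2, the genes Orc3, Orc4 and Orc5 were thus not higher in both 24 h pairs. At 10 days this list's median was 0.02, and Asf1b was higher by 0.17 and 1.51. Pold4, a small subunit of polymerase delta, was lower by 0.24 and 0.29 at 24 h and higher by 0.51 and 0.63 at 10 days.

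Of 14 E2F factors and G1/S regulators 12 were higher in both 24 h pairs (background 31.8%), with a median of 0.66, and 10 at 10 days (background 33.2%), with a median of 0.30. E2f1, an activating E2F, measured 6.79 and 5.61, then 7.56 and 6.46 with FGF9 at 24 h, and 6.07 and 6.25, then 6.01 and 6.30 with FGF9 at 10 days. Ccnd1, the G1 cyclin D1, measured 9.96 and 9.80, then 11.62 and 12.40 with FGF9 at 24 h, and 9.25 and 8.51, then 11.51 and 12.05 with FGF9 at 10 days. E2f1 thus differed within the 24 h pairs and hardly at 10 days, whereas the Ccnd1 groups were far apart at both times. Ccnd1 rose at 10 days in the block fit, by 2.89 (adjusted p = 0.0195), and was the 1 gene of its list called (background 3.12%). Ccna2, the S-phase cyclin A2, was higher by 1.42 and 1.57 at 24 h and by 0.43 and 1.85 at 10 days, and Ccne2, cyclin E2, by 1.32 and 1.24 at 24 h. Cdkn1a, the kinase inhibitor p21, was higher by 0.77 and 2.00 at 10 days.

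All 9 checkpoint and repair genes were higher in both 24 h pairs (median 0.76, background 31.8%), among them Exo1, an exonuclease, by 1.48 and 1.03, and Chek1, the S-phase checkpoint kinase, by 0.88 and 1.17. At 10 days 5 of 9 were higher in both pairs (background 33.2%), with a median of 0.13. In the block fit limma then called 0 of 9 (background 6.43%), with 3 higher at an unadjusted p under 0.05 (background 12.7%). Mki67 was not analysed here. Of 11 proliferation and mitosis genes 10 were higher in both pairs at 24 h (median 1.02, background 31.8%) and 10 at 10 days (median 0.82, background 33.2%). Tpx2, a spindle factor, rose at 10 days in the block fit, by 1.13 (adjusted p = 0.0388), the 1 gene called in its list (background 3.12%). Cdk1, the mitotic kinase, was higher by 1.29 and 1.32 at 24 h and by 0.25 and 2.17 at 10 days. At 10 days the median of the mitotic list was 0.27 in pair 1 and 1.33 in pair 2, against -0.05 and 0.37 for the replication genes. In both lists pair 2 thus gave the larger median. Aurkb, of the mitotic list, was lower in every pair, by -0.31 and -0.60 at 24 h and by -0.20 and -1.09 at 10 days. The difference between the lists was not tested.

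Markers of cell types also differed between FGF9 and control arrays, and their part in the replication gene differences was not tested. All 8 astrocyte genes were lower in both pairs at 24 h (median -0.69, background 32.9%), and their summed level was 15.27 to 15.34 in control and 14.36 to 14.67 with FGF9. Gfap, the astrocyte filament, measured 12.90 and 12.99, then 12.13 and 11.24 with FGF9 at 24 h, and 13.24 and 12.40, then 12.64 and 12.65 with FGF9 at 10 days. The 24 h groups of Gfap did not overlap, and those at 10 days did. Of 7 myelin genes 6 were lower in both 24 h pairs (median -0.54, background 32.9%), with summed levels of 12.89 to 14.71 in control and 12.27 to 14.23 with FGF9. All 8 neuronal genes were lower in both pairs at both times (background 32.9% at 24 h and 30.0% at 10 days), with medians of -0.19 and -0.88 and summed 10-day levels of 14.37 to 15.16 in control and 13.57 to 14.34 with FGF9. In the block fit 6 of the 8 fell at 10 days (background 3.31%), namely Nefl, Nefm, Snap25, Syt1, Gad1 and Slc17a6. The 6 precursor genes of oligodendrocytes had medians of 0.12 at 24 h and 0.80 at 10 days, and summed 10-day levels of 12.96 to 13.63 in control and 13.66 to 14.39 with FGF9. Cspg4, the NG2 proteoglycan, rose by 1.70 at 10 days in the block fit (adjusted p = 0.0143), while Pdgfra, the PDGF receptor of precursors, was at 10.16 and 10.71, then 10.47 and 10.90 with FGF9 at 24 h, and at 11.21 and 10.41, then 10.69 and 10.40 with FGF9 at 10 days.

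Other cells that such a culture can hold were also looked at. The 24 h and 10-day medians were -0.08 and -0.03 for 8 microglial genes and -0.18 and 0.27 for 5 Schwann cell genes. The microglial medians had opposite signs in the pairs, -0.37 and 0.20 at 24 h and -0.56 and 0.38 at 10 days. This split was not tested. For 6 endothelial genes the medians were 0.07 and -0.10, and single genes went apart. Flt1 was higher in all 4 pairs, by 0.60, 2.27, 0.86 and 2.02, while Kdr differed by 0.23, -1.53, -2.88 and 0.45. The medians were -0.29 and -0.27 for 6 fibroblast and pericyte genes, which were all lower in both 24 h pairs (background 32.9%). Pmp22, a myelin gene of Schwann cells that other cells also express, rose by 1.52 at 10 days in the block fit (adjusted p = 0.0426). The summed fibroblast level was 9.61 and 9.28 on the AA1 arrays, which are pair 2 at 10 days, and 12.68 to 13.49 on the other arrays. The pair that gave the higher 10-day replication differences is thus the one with low fibroblast genes, and their part in the result was not tested.

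**Figure D4:**
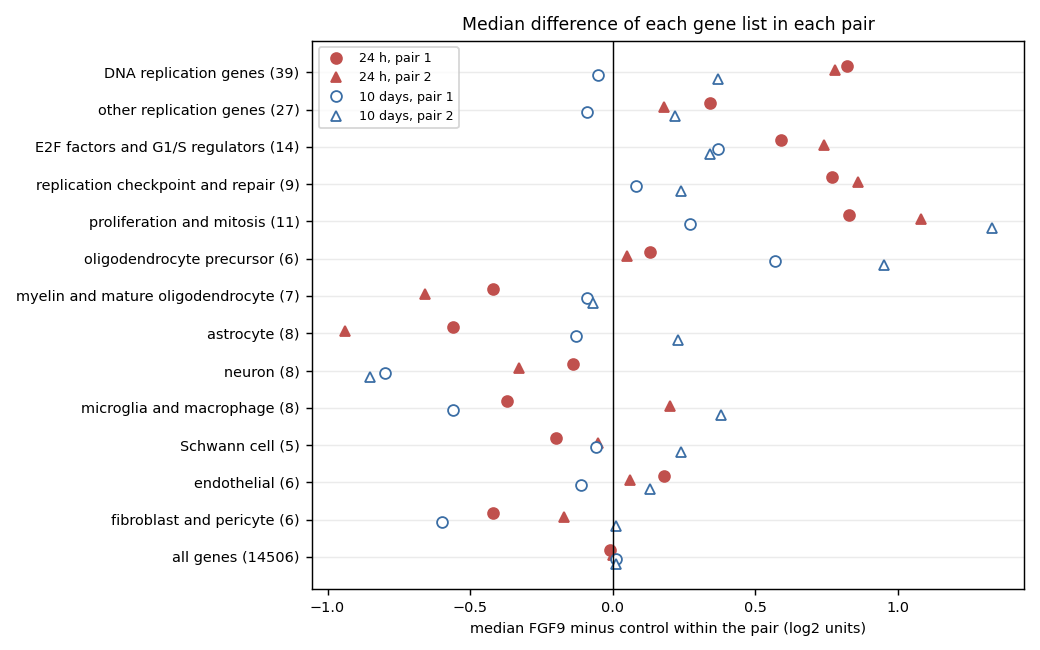
Median FGF9 minus control difference within each pair (x axis, log2 units) for the replication genes, the other gene lists and all genes (rows, number of genes measured in brackets); filled red is 24 h, open blue 10 days, circles pair 1 and triangles pair 2. Cell cycle lists lie to the right of 0 at 24 h and the myelin, astrocyte and neuron lists to the left, and at 10 days the 2 pairs of the replication genes stand at -0.05 and 0.37.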

How the data were processed

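Total RNA of the cultures was hybridised to 8 arrays. The deposited table has a log2 value for every feature on every array; no label states the scale, which is read from the range of the values. Partek 6.5 and GCRMA (background correction and summarization) are named as the authors' tools by the submitters' processing notes, and no further step is given in the sources used. The number of arrays limits the precision.

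Groups and replicate numbers come from the titles and pairs from the numbers and the array-name prefixes. Of 29214 features 15310 had 1 symbol, 323 several and 13581 none; the RefSeq table held the Entrez identifiers of 15279 and changed 0 symbols. Of 14506 genes 527 had several features. Differences were fitted to the deposited values with limma 3.58.1 in R 4.3.3 (lmFit, eBayes; 1 mean per group, 4 residual degrees of freedom; Benjamini-Hochberg adjustment over all genes, threshold 0.05). The prefix as a block, equal to the pair within a time, left 2. Same-numbered arrays deviated together, with correlations over genes of 0.757 at 24 h and 0.819 at 10 days, so the numbers were taken to pair the arrays, and blocked values are printed beside the others. FGF9 differences are the same in both fits and only their errors differ. The fits were tested on simulated data in which 100 genes were changed by 1 log2 unit at 10 days and 100 by 2. With 1 mean per group limma called 0 and 38 of these, and with the block 43 and 83. It called 0 unchanged genes without the block and 3 with it. A count of 0 called genes thus does not show that differences of about 1 log2 unit are absent. The 24 h comparison was not simulated.

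The members and lists were chosen with earlier results of these data known. Array values are given for the 2 largest and 1 smallest mean difference per role, every member called in a quoted fit, and Pcna, Mcm2 and Cdc6. From other lists, genes are the 3 largest differences at each time with the same sign in both pairs, plus E2f1, Ccnd1, Gfap and Pdgfra; not all of these are printed. Snap25, Gad1, Slc17a6, Aurkb, Orc2, Orc3, Orc4 and Orc5 were named after their values were seen. A list's summed level is log2 of the sum of its linear values. Of 135 list entries 115 were measured. Alternatives were normalization, block, feature choice, a filter on dim genes, a minimum difference and arrays left out.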

Additional observations from a re-analysis of the deposited data

Results flagged for a closer look

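In 7 replication genes both pairs were higher with FGF9 at 24 h and both were lower at 10 days (17.9% of the 39, background 5.75%). Since 38 of 39 were higher in both 24 h pairs, these are the same 7 that were lower in both at 10 days. For lower in both pairs at 10 days alone the background was 30.0%, above the members' 17.9%. The excess over 5.75% thus comes from the 24 h direction. The 10-day minus the 24 h difference was -0.93 for Pcna, -0.72 for Rfc3, -1.25 for Prim1, -0.91 for Lig1, -0.66 for Tyms, -1.04 for Dut and -0.68 for Dnmt1. In limma the adjusted p of this difference was 1.0 for each, and with the pair as a block it ran from 0.226 to 0.277, so none passed. Tyms and Dnmt1 were within 0.005 of 0 in 1 of their 10-day pairs, and their 10-day direction rests on that. Pcna, at -0.05 and -0.03, and Lig1 in pair 2, at -0.03, were also close to 0 at 10 days.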

How the results depend on the processing

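The 24 h median of the replication genes, 0.77, stayed above 0 under every alternative run. It was 0.81 with array medians subtracted, 0.63 for the 19 genes above the median mean level, 0.82 in the block fit without pair 2 at 24 h, and 0.47 to 1.04 without 1 array. No replication gene was called at 24 h except in the block fit without pair 1 or pair 2 at 10 days (16 of them and 237 genes in all), which removes the 10-day spread from the error. At 10 days the count over all genes was 0 in the reported fit. It was 933 with the pair as a fixed block, 151 with it as a random block, 957 with the block and quantile normalization and 6 with array medians subtracted. In block fits it was 469 without either 24 h pair, 1506 without pair 1 and 569 without pair 2 at 10 days; 7 replication genes were called without pair 1. Requiring over 0.5 in each pair left 2 of the 16 genes higher in both. The median difference between times, -0.63, ran from -0.91 to -0.24 without 1 array, the latter without the 24 h control of pair 2. Over all genes that difference was called in 7 genes with the fixed block, 4 with the random block, 8 with quantile normalization added, and in 1, 322 and 9 without pair 1 at 24 h, pair 1 at 10 days and pair 2 at 10 days; 1 replication gene was called, without pair 1 at 10 days. For the controls, 1 gene was called with the block, 1 with quantile normalization added and 2 each without pair 1 at 24 h or pair 2 at 10 days, and the median, -0.43, was -0.07 with the block. Block fits of the controls without pair 2 at 24 h or pair 1 at 10 days are not given, since no prefix is then shared between the times. Leaving out 1 array turned the sign of 1 replication gene at 24 h, Gins3, and of 22 at 10 days. Other settings that kept all pairs turned Pola1 at 10 days. With the fits that leave out a pair counted too, other settings turned 1 gene at 24 h and 16 at 10 days. Counts in both pairs have no value without an array. A fit without a pair takes its error from the other time alone. Pair-left-out fits and block fits after quantile normalization were chosen after seeing the data.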
